A study of Mus musculus with 16 samples.

Results

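Collagen-modifying enzymes and chaperones were followed in flexor tendon from 2 mouse strains before and after injury. The 9 genes described were *P4ha1*, *P4ha2*, *P4ha3* and *P4hb* (subunits of prolyl 4-hydroxylase), *Plod1*, *Plod2* and *Plod3* (lysyl hydroxylases), and *Serpinh1* and *Crtap* (a collagen chaperone and a subunit of the prolyl 3-hydroxylation complex). They were chosen by symbol, and all 9 were found among the 49568 gene symbols of the count table. RNA-seq libraries came from 16 tendons, 4 in each of 4 groups: uninjured C57BL/6J (C57), C57 at 7 days post-injury (dpi), uninjured MRL/MpJ (MRL) and MRL at 7 dpi. The mice were male and 9 to 11 weeks old, and the injury was a laceration through 50% of the width of the deep digital flexor tendon of a hind-paw digit. C57 is a common inbred laboratory strain, and MRL is an inbred strain known for healing ear wounds with little scar. No transgene or engineered allele is named. Per the methods, surgery was done under ketamine and xylazine and followed by buprenorphine, and whether uninjured mice received these agents is not given in the sources used here, so their part and that of the skin incision in the injury changes cannot be told apart from the laceration. Each library was made from a single tendon, and peritendinous and sheath tissue was not removed, so every library mixes cell types. Uninjured libraries are named by strain and replicate number. Injured libraries carry the names of their labels, and their values are given in the order of these names: BI-181, then BI-183, BI-184 and BI-185 for C57 (written BI-181 to BI-185), and BI-270, then BI-272, BI-274 and BI-275 for MRL (written BI-270 to BI-275).

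Fibrillar collagen is modified inside the cell before it is secreted. In the endoplasmic reticulum (ER), prolyl 4-hydroxylase converts prolines of the nascent chains to hydroxyproline, which makes the triple helix stable at body temperature. The enzyme needs iron, ascorbate, oxygen and oxoglutarate, and it pairs a catalytic alpha subunit with protein disulfide isomerase as its beta subunit. Lysyl hydroxylases modify lysines that later carry sugars and form the cross-links of the mature fibril. The chaperone HSP47 binds the folded helix and escorts it towards the Golgi. Tendon is mostly type I collagen, and a healing tendon lays down new fibrils with a larger share of type III collagen.

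The catalytic alpha subunits are encoded by *P4ha1* (GRCm38 chromosome 10, from 59323296 to 59373304), *P4ha2* (chromosome 11, from 54100095 to 54131665) and *P4ha3* (chromosome 7, from 100285520 to 100319699), all on the plus strand. *P4hb*, the beta subunit, lies on the minus strand of chromosome 11 from 120560298 to 120573253. The lysyl hydroxylases are encoded by *Plod1* (chromosome 4, from 147909753 to 147936767, minus strand), *Plod2* (chromosome 9, from 92542223 to 92608428, plus strand) and *Plod3* (chromosome 5, from 136987019 to 136996648, plus strand). *Serpinh1*, which encodes HSP47, lies on the minus strand of chromosome 7 from 99345376 to 99353239. *Crtap*, which encodes cartilage-associated protein, lies on the minus strand of chromosome 9 from 114375134 to 114390675. In the GENCODE annotation *Plod3* overlaps *Znhit1* on the opposite strand and the microRNA gene *Mir702* on its own, *Crtap* overlaps the transcript 4930520O04Rik on the opposite strand, and *Plod2* overlaps the gene model Gm38391 on the opposite strand. The strand setting of the counting is not given in the sources used here, so reads from these overlaps cannot be told apart.

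Several prolyl and lysyl hydroxylase genes are known targets of the hypoxia-inducible factor, whose response element has the core letters ACGTG or GCGTG. The 250 bases before the RefSeq start (GRCm38.p6) are shown for the 3 catalytic subunits, each of which had another pattern in these tendons, and for *Serpinh1*, the chaperone that rose most. For *P4ha2* the RefSeq start lies downstream of the GENCODE start, so its window lies inside the gene interval given above. Sequences run 5′ to 3′ on the strand of the gene, and capitals mark the core letters on either strand (on the opposite strand they read CACGT or CACGC).
P4ha1, chr10:59323046-59323295, plus strand: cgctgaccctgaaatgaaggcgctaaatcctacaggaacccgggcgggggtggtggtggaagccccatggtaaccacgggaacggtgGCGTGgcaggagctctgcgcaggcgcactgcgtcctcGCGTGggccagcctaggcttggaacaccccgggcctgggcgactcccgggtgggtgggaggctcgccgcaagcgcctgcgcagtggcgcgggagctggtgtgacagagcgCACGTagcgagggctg
P4ha2, chr11:54100674-54100923, plus strand: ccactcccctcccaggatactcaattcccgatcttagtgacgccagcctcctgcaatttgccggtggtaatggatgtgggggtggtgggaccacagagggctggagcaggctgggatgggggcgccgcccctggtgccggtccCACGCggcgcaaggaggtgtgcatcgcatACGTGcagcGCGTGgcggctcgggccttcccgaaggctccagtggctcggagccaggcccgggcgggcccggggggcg
P4ha3, chr7:100285270-100285519, plus strand: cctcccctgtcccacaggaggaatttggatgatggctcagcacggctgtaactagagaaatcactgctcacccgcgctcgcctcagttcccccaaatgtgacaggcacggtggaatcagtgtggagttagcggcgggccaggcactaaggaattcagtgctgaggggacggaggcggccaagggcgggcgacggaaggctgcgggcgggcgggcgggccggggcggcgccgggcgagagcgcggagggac
Serpinh1, chr7:99353240-99353489, minus strand: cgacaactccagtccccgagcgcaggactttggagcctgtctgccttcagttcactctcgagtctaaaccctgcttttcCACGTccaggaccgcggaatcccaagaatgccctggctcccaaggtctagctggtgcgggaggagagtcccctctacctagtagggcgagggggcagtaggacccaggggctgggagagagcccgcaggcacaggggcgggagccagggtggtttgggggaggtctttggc

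Of the 8 member genes with a RefSeq window, *P4ha1*, *P4ha2* and *Crtap* held 3 matches each, *Plod3* held 4, *P4hb* held 2, *Plod1* and *Serpinh1* held 1 each, and *P4ha3* held 0. Among all 32851 windows of the same length, 38.6% held at least 1 match and 6.58% held at least 3. A match describes letters in the window and not a bound site, and the 0 for *P4ha3* says only that these letters were not in its window.

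Before the members were compared, each library was set against its strain label, because 2 uninjured libraries stood apart. Genes with at most 1 count in every injured library of one strain and at least 30 counts in every injured library of the other were taken as strain-specific, 17 for MRL and 10 for C57, and were then read in the uninjured libraries, which had not been used to choose them. The library labelled C57 uninjured replicate 4 had at least 5 counts for 16 of the 17 MRL genes and for 1 of the 10 C57 genes. The library labelled MRL uninjured replicate 4 had at least 5 counts for 0 of the 17 MRL genes and for all 10 C57 genes. The other 6 uninjured libraries matched their labels, with 16 or 17 MRL genes in MRL tendons and 9 or 10 C57 genes in C57 tendons. Both libraries were kept in the group of their label, and values without them are given where leaving them out changed a call, a direction or an overlap between groups.

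**Figure D1:**
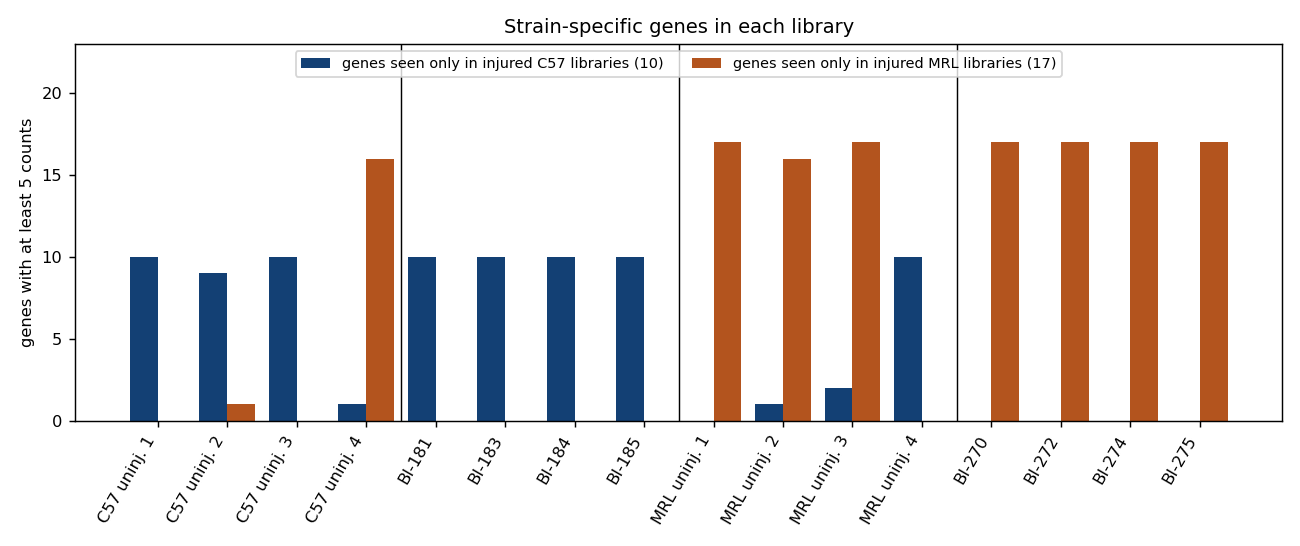
Number of strain-specific genes (y axis) with at least 5 counts in each of the 16 libraries (x axis), for the 10 genes seen only in injured C57 libraries (blue bars) and the 17 seen only in injured MRL libraries (orange bars); vertical lines separate the 4 groups. The library labelled C57 uninjured replicate 4 carries 16 of the MRL genes, and the library labelled MRL uninjured replicate 4 carries all 10 of the C57 genes.

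Between 12552424 and 23741648 counts were deposited per library, and the injured MRL libraries were the most deeply sequenced (18524170 to 23741648). Tenocyte markers (*Scx*, *Mkx*, *Tnmd*, *Fmod*, *Thbs4* and *Egr1*) were read in every group, with a summed level from 5058 to 12120 counts per 1000000 (CPM) in uninjured C57, 6861 to 10330 CPM in injured C57, 10780 to 13850 CPM in uninjured MRL and 13120 to 19280 CPM in injured MRL libraries. The lowest value was that of the library labelled C57 uninjured replicate 4. The same library had 85030 CPM on 12 epidermal markers, against 43.9 to 918 CPM in the other 15 libraries. BI-181 had 72740 CPM and BI-183 2171 CPM on 12 skeletal muscle markers, against 6.17 to 19.98 CPM in the other 14. The part of these other tissues in the members' values was not tested, and values without these libraries are given after those of all libraries. CPM were computed on library sizes adjusted by the trimmed mean of M-values (TMM), and a gene was called where edgeR's quasi-likelihood test gave a Benjamini-Hochberg adjusted p-value under 0.05.

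After injury, 5 of the 9 members rose in MRL tendon (*P4ha3*, *Serpinh1*, *P4ha2*, *Plod3* and *P4hb*, between 1.74-fold and 7.57-fold) and none of the 9 was called in C57 tendon by edgeR with all libraries in the fit, where DESeq2 called *P4ha3*. Over all genes, 11.1% of 14274 tested genes were called in MRL and 1.13% of 14424 in C57. No member was called as lower in either strain. The largest log2 fold change in both strains was that of *P4ha3*. In a test of the difference between the strains' responses, no member was called. In bulk tendon, a larger share of cells that express a gene and more of its RNA in each cell cannot be told apart.

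*P4ha3* was the member with the lowest level in uninjured tendon. In C57 it was measured at 10.7, 6.80, 11.3 and 0 CPM in uninjured replicates 1 to 4, the last being the library labelled replicate 4 with 0 counts, which allows up to 0.192 CPM at this depth. At 7 dpi it was measured at 35.5 (BI-181), 136 (BI-183), 40.1 (BI-184) and 46.6 CPM (BI-185). All 4 injured C57 libraries lay above all 4 uninjured ones, and BI-183 stood well above the rest. In MRL, *P4ha3* was measured at 6.10, 2.45, 11.04 and 12.9 CPM in uninjured replicates 1 to 4. At 7 dpi it was measured at 60.2 (BI-270), 78.1 (BI-272), 44.6 (BI-274) and 61.7 CPM (BI-275). The injured and uninjured MRL libraries did not overlap either.

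The log2 fold change of *P4ha3* was 2.92 ± 0.44 (SE, n = 4 and 4) in MRL, with an edgeR adjusted p = 0.00380. In C57 it was 3.12 ± 1.07 with all libraries (edgeR adjusted p = 0.227), so the value was as large and its error wider. DESeq2 called it in C57 with all libraries (log2 fold change 3.18 ± 0.99, DESeq2 adjusted p = 0.0267). Without the library labelled C57 uninjured replicate 4, the log2 fold change in C57 was 2.70 ± 0.52 and the gene was called (edgeR adjusted p = 0.0210), 1 of 9 members against 6.26% of 14983 genes. In MRL without the library labelled uninjured replicate 4 it was 3.24 ± 0.46 (edgeR adjusted p = 0.00658). The call in MRL held without each of the 8 libraries, and was lost when all 16 libraries shared 1 fit (edgeR adjusted p = 0.0593).

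*P4ha2*, the catalytic subunit of the second main form of the enzyme, stood at 88.4, 77.7, 70.7 and 33.6 CPM in uninjured C57 replicates 1 to 4. It stood at 69.0, 150.0, 115 and 123 CPM in BI-181 to BI-185. BI-181 lay inside the uninjured range and the other 3 injured libraries above it. In MRL it was measured at 60.5, 87.8, 78.9 and 102 CPM in uninjured replicates 1 to 4, and at 113, 161, 134 and 190.2 CPM in BI-270 to BI-275. The MRL groups did not overlap. Its log2 fold change was 0.87 ± 0.21 in MRL (1.83-fold, edgeR adjusted p = 0.0264) and 0.71 ± 0.31 in C57 (1.64-fold, edgeR adjusted p = 0.326). The MRL call was lost without BI-272 and without uninjured replicates 1, 2 or 3 (edgeR adjusted p from 0.0594 to 0.0740), and in the fit of all 16 libraries (edgeR adjusted p = 0.0765).

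*P4ha1* encodes the most widely expressed catalytic subunit. In C57 it was measured at 145, 152, 168 and 105 CPM in uninjured replicates 1 to 4 and at 97.1, 184, 132 and 151 CPM in BI-181 to BI-185. The C57 groups overlapped throughout, with a log2 fold change of -0.06 ± 0.22 (edgeR adjusted p = 0.931). In MRL it was measured at 293, 271, 296 and 166 CPM in uninjured replicates 1 to 4 and at 319.8, 472, 305 and 357 CPM in BI-270 to BI-275. The injured MRL libraries lay above the uninjured ones, but the difference was not called (log2 fold change 0.51 ± 0.21, edgeR adjusted p = 0.149). Without each single library it ranged from 0.36 to 0.59 (edgeR adjusted p from 0.129 to 0.330). Leaving out the library labelled MRL uninjured replicate 4 moved the uninjured MRL mean from 256.4 to 286.5 CPM, against 363.3 CPM in injured MRL. The library labelled MRL uninjured replicate 4 lay at the level of C57 tendon, and the library labelled C57 uninjured replicate 4 lay below the other uninjured C57 libraries.

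*P4hb* encodes protein disulfide isomerase, which also forms disulfide bonds in many other secreted proteins and was the most abundant member. *P4hb* in C57 was measured at 1091, 998, 1152 and 833 CPM in uninjured replicates 1 to 4 and at 761, 1499, 1334 and 1287 CPM in BI-181 to BI-185. In MRL it was measured at 1207, 1205, 1261 and 1121 CPM in uninjured replicates 1 to 4 and at 1647, 2457, 1942 and 2282 CPM in BI-270 to BI-275. The MRL groups were fully separated, whereas in C57 BI-181 was below every uninjured library. *P4hb* had a log2 fold change of 0.80 ± 0.17 in MRL (edgeR adjusted p = 0.0149) and 0.21 ± 0.24 in C57 (edgeR adjusted p = 0.728). Without MRL uninjured replicate 1 the MRL call was just lost, with an edgeR adjusted p = 0.0524.

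**Figure D2:**
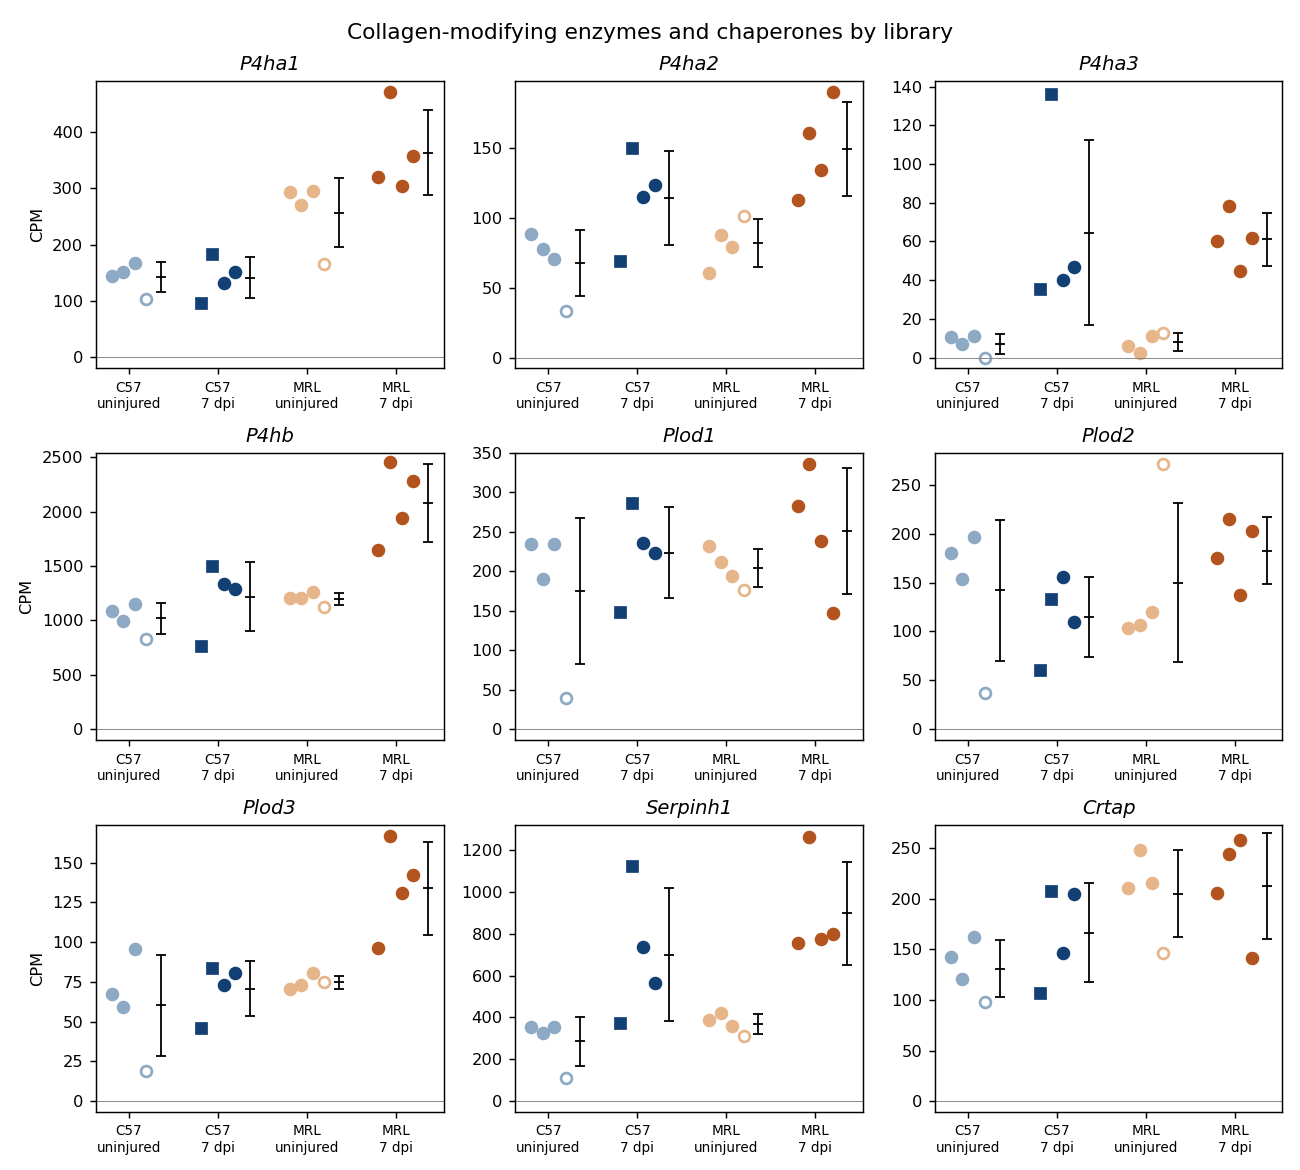
Level of each of the 9 members (y axis, CPM on TMM-adjusted library sizes, linear from 0) in the 16 libraries by group (x axis); black bars are the mean ± SD of 4 libraries. Hollow circles are the libraries labelled uninjured replicate 4 and squares are BI-181 and BI-183. *P4ha3* and *Serpinh1* are above all uninjured libraries in every injured library of their own strain, *P4ha1* is higher in MRL than in C57 after injury, and *Plod1* and *Crtap* overlap between injured and uninjured tendon.

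*Plod3* encodes the lysyl hydroxylase that can also build sugars onto hydroxylysine, galactose first and then glucose on the galactose. *Plod3* in C57 was measured at 67.4, 59.0, 95.5 and 19.0 CPM in uninjured replicates 1 to 4 and at 45.9, 83.4, 73.0 and 80.8 CPM in BI-181 to BI-185. In MRL it was measured at 70.8, 72.8, 80.6 and 75.0 CPM in uninjured replicates 1 to 4 and at 96.1, 167, 131 and 142 CPM in BI-270 to BI-275. The uninjured MRL libraries were close together and all injured ones lay above them, while the C57 groups overlapped. For *Plod3* the log2 fold change was 0.85 ± 0.17 in MRL (edgeR adjusted p = 0.0136) and 0.19 ± 0.41 in C57 (edgeR adjusted p = 0.880). The C57 value turned, without the library labelled C57 uninjured replicate 4, to -0.10 ± 0.24 (edgeR adjusted p = 0.846). The MRL call held without each of the 8 libraries and was lost in the fit of all 16 libraries (edgeR adjusted p = 0.141).

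*Plod2* encodes the telopeptide lysyl hydroxylase, known for the stable cross-links of scar collagen. Uninjured C57 had 181, 153, 197 and 37.1 CPM in replicates 1 to 4, and injured C57 had 61.1, 133, 156 and 109 CPM in BI-181 to BI-185. In MRL it was measured at 103, 107, 119.5 and 271 CPM in uninjured replicates 1 to 4 and at 175, 215, 137 and 202 CPM in BI-270 to BI-275. The library labelled MRL uninjured replicate 4 was the highest of all 16 and the library labelled C57 uninjured replicate 4 the lowest. With all libraries *Plod2* was called in neither strain (log2 fold change -0.35 ± 0.47, edgeR adjusted p = 0.779 in C57, and 0.29 ± 0.31, edgeR adjusted p = 0.585 in MRL). Without the library labelled MRL uninjured replicate 4 it rose in MRL, by 0.75 ± 0.18 on the log2 scale (edgeR adjusted p = 0.0377), and the count of members called there went from 5 to 6, against 8.12% of 14868 genes. Without the library labelled C57 uninjured replicate 4 the log2 fold change in C57 was -0.67 ± 0.27 (edgeR adjusted p = 0.193).

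*Plod1*, the lysyl hydroxylase of the helical region, showed no called change. It ranged from 40.3 to 235 CPM in uninjured C57, from 149 to 287 CPM in injured C57, from 177 to 233 CPM in uninjured MRL and from 148 to 335 CPM in injured MRL libraries. Its log2 fold change was 0.31 ± 0.47 in C57 (edgeR adjusted p = 0.807) and 0.30 ± 0.22 in MRL (edgeR adjusted p = 0.414). In C57 it was -0.02 ± 0.21 without the library labelled uninjured replicate 4, the lowest of its group (edgeR adjusted p = 0.976). Injured and uninjured libraries overlapped in both strains.

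*Serpinh1* was the member with the second largest change. In C57 it was measured at 355, 328, 353 and 113 CPM in uninjured replicates 1 to 4 and at 375, 1122, 737 and 566 CPM in BI-181 to BI-185. In MRL it was measured at 385, 419, 361 and 309.7 CPM in uninjured replicates 1 to 4 and at 756, 1263, 773 and 797 CPM in BI-270 to BI-275. Neither strain's groups overlapped, although BI-181 was only just above the highest uninjured C57 library. For *Serpinh1* the log2 fold change was 1.29 ± 0.20 in MRL (2.44-fold, edgeR adjusted p = 0.00410) and 1.24 ± 0.42 in C57 (2.36-fold, edgeR adjusted p = 0.216). The C57 value was 0.98 ± 0.31 without the library labelled C57 uninjured replicate 4 (edgeR adjusted p = 0.109). The MRL call held without each of the 8 libraries and in the fit of all 16.

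*Crtap*, which forms a complex with P3h1 and cyclophilin B that hydroxylates single prolines of collagen, was not called after injury in either strain. It ranged from 97.8 to 163 CPM in uninjured C57, from 107 to 208 CPM in injured C57, from 146 to 248 CPM in uninjured MRL and from 141 to 259 CPM in injured MRL libraries. The log2 fold change was 0.30 ± 0.25 in C57 (edgeR adjusted p = 0.608) and 0.06 ± 0.22 in MRL (edgeR adjusted p = 0.898), where it was -0.06 ± 0.22 without the library labelled uninjured replicate 4 (edgeR adjusted p = 0.890).

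In MRL, 6 of the 9 members lay higher in every injured than in every uninjured library (*P4ha1*, *P4ha2*, *P4ha3*, *P4hb*, *Plod3* and *Serpinh1*), as did 13.5% of the genes tested. With *Plod2* added, 7 of the 9 did so without the library labelled MRL uninjured replicate 4, as did 16% of the genes. In C57, 2 of the 9 did (*P4ha3* and *Serpinh1*), as did 7.42%, and the same 2 did without the library labelled uninjured replicate 4, as did 11.6%. Of the 5 members called in MRL, *P4ha3* and *Serpinh1* also passed an absolute log2 fold change of 1, which the study used beside the adjusted p. Over all genes, 1057 of the 14274 tested in MRL passed both. In C57 the number of genes called over all genes rested on single libraries: 163 with all 8, 938 without the library labelled uninjured replicate 4, and between 10 and 93 without any other 1 library. Without that library and BI-181, 1241 of 14515 genes were called (8.55%), and so were 3 members: *P4ha3* (log2 fold change 2.95 ± 0.49, edgeR adjusted p = 0.00940), *Serpinh1* (1.23 ± 0.22, edgeR adjusted p = 0.0131) and *P4ha2* (0.72 ± 0.15, edgeR adjusted p = 0.0220). Those 3 were among the 5 called in MRL, whereas *P4hb* (0.35 ± 0.12, edgeR adjusted p = 0.125) and *Plod3* (0.10 ± 0.19, edgeR adjusted p = 0.819) were not called in that fit.

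The C57 changes also moved with the libraries that held muscle markers, and no member was called by edgeR without either one of them. Without BI-181 alone, the log2 fold change in C57 was 0.11 ± 0.21 for *P4ha1*, turning from below 0 to above it. It was 0.41 ± 0.19 for *P4hb*, 0.92 ± 0.30 for *P4ha2*, 3.35 ± 1.17 for *P4ha3* and 1.48 ± 0.41 for *Serpinh1*. The lysyl hydroxylases and *Crtap* lay between -0.11 and 0.49 in that fit, and edgeR adjusted p ranged from 0.193 to 0.955 over the 9 members. Without BI-183 alone, *P4ha3* was at 2.499 ± 1.13 (edgeR adjusted p = 0.475) and *Serpinh1* at 0.96 ± 0.41 (edgeR adjusted p = 0.450). The other 7 members lay between -0.39 and 0.59 there, with edgeR adjusted p from 0.566 to 0.946.

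**Figure D3:**
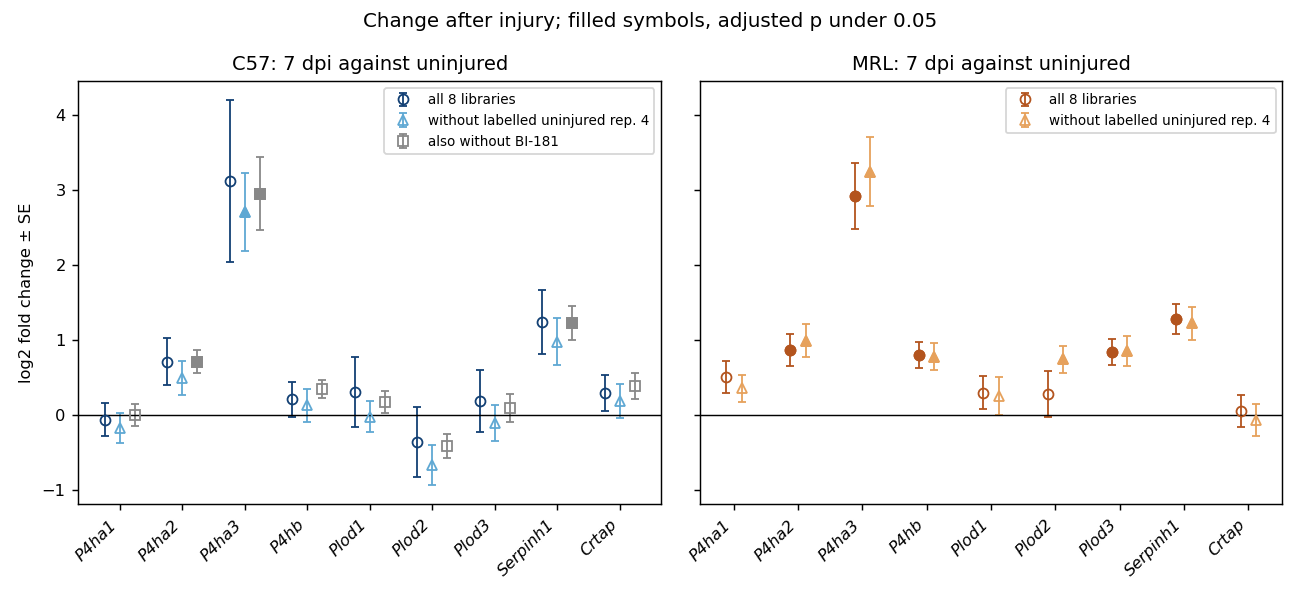
Log2 fold change at 7 dpi against uninjured tendon (y axis, ± SE) of the 9 members (x axis) in C57 (left) and MRL (right). Circles are all 8 libraries, triangles leave out the library labelled uninjured replicate 4, grey squares also leave out BI-181, and filled symbols have an edgeR adjusted p under 0.05. *P4ha3* lies between 2.70 and 3.24 in all 5 fits, and *P4hb* and *Plod3* are filled in MRL and open in C57.

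Whether the response to injury differed between the strains was tested as an interaction over all 16 libraries. No member was called, and 0 of 15947 genes were (0.0%), with 1939 genes at an unadjusted p under 0.05. DESeq2 called 210 genes and 0 members. The difference (MRL response minus C57 response, log2) was 0.54 ± 0.28 for *P4hb*, which had the smallest adjusted p of the members (edgeR adjusted p = 0.465), 0.60 ± 0.47 for *Plod3*, 0.58 ± 0.60 for *Plod2*, 0.51 ± 0.32 for *P4ha1*, and -0.25 ± 1.16 for *P4ha3*. For *Serpinh1* it was -0.01 ± 0.48. Without both libraries labelled uninjured replicate 4, *Plod2* gave the largest value, 1.35 ± 0.35 (edgeR adjusted p = 0.249), and 0 of 16391 genes were called (0.0%). So the calls made in MRL and not in C57 were not shown to be differences between the strains.

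Among injured tendons, *P4ha1* was higher in MRL than in C57. All 4 MRL libraries (305 to 472 CPM) lay above all 4 C57 libraries (97.1 to 184 CPM), the means were 363 ± 75 and 141 ± 36 CPM (SD, n = 4 each), and the log2 fold change was 1.33 ± 0.22 (2.52-fold, edgeR adjusted p = 0.0121). It was the 1 member called, against 3.87% of 14626 genes. Of the 566 genes called, 271 were higher and 295 lower in MRL, and with total counts in place of TMM 203 were higher and 416 lower, with *P4ha1* called and higher in both. The *P4ha1* call held without each single library (edgeR adjusted p from 0.0214 to 0.0432). Without both BI-181 and BI-183, the libraries with muscle markers, the value was 1.34 ± 0.24 and no longer called (edgeR adjusted p = 0.0635). Markers of other cell types differed in the same comparison. Of 8 macrophage markers 4 were lower in MRL and all 8 had a log2 fold change below 0 (summed level 3504 to 6375 CPM, against 4563 to 8252 CPM in C57). Of 6 endothelial markers 2 were lower in MRL (*Pecam1* and *Esam*), with a summed level of 4.03 to 27.8 CPM against 102 to 188 CPM. Of 6 tenocyte markers *Scx* was higher in MRL (1.18 ± 0.21, edgeR adjusted p = 0.0162), and the other 5 were above 0 and not called. Of 6 proliferation, 10 tested epidermal and 4 tested skeletal muscle markers 0 were called. The part of these cells in the *P4ha1* difference was not tested. Other genes of the ER were higher in MRL in this comparison too: 5 of 14 ER chaperone and unfolded protein response genes (*Pdia4*, *Calr*, *Hyou1*, *Creld2* and *Dnajb11*), of which all 14 were above 0 (median log2 fold change 0.81, against -0.06 over all genes), and 2 of 11 ER partners (*Fkbp14* and *P3h2*), of which 10 were above 0 (median 0.73). These 7 genes were chosen for naming after their values were seen.

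The other prolyl and lysyl hydroxylase genes were not called between injured tendons. The log2 fold change was 0.89 ± 0.23 for *Plod3* (edgeR adjusted p = 0.0602), which was called without BI-270 (edgeR adjusted p = 0.0404) and by DESeq2 (adjusted p = 0.00835). It was 0.74 ± 0.24 for *P4hb* (edgeR adjusted p = 0.117), which DESeq2 also called (adjusted p = 0.0263). It was 0.64 ± 0.26 for *Plod2* (edgeR adjusted p = 0.201). *P4ha2*, *Plod1*, *Serpinh1* and *Crtap* lay between 0.14 and 0.35, with edgeR adjusted p from 0.441 to 0.813, and *P4ha3* was at -0.11 ± 0.41 (edgeR adjusted p = 0.905), which turned to 0.55 ± 0.23 without BI-183 (edgeR adjusted p = 0.236). The largest rises after injury, those of *P4ha3* and *Serpinh1*, thus ended at levels that were not called different between the strains.

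Among uninjured tendons, no member and 0 of 14055 genes were called between the strains with all 8 libraries (0.0%), while 1106 genes had an unadjusted p under 0.05 and DESeq2 called 125. This comparison holds both libraries whose strain-specific genes went against their labels. Without both, 785 of 14274 genes were called (5.5%), and so were 3 members. *P4ha1* was higher in MRL (271 to 296 CPM, against 145 to 168 CPM in C57; log2 fold change 0.88 ± 0.11, edgeR adjusted p = 0.00104). *Crtap* was also higher in MRL (211 to 248 CPM, against 120.5 to 163 CPM; log2 fold change 0.65 ± 0.13, edgeR adjusted p = 0.0208). *Plod2* was lower in MRL (103 to 119.5 CPM, against 153 to 197 CPM; log2 fold change -0.70 ± 0.13, edgeR adjusted p = 0.0118), whereas with all libraries its value was 0.07 ± 0.49 (edgeR adjusted p = 0.982). For *P4ha1* and *Crtap* the values with all libraries were close to those without (0.82 ± 0.22 and 0.62 ± 0.21), with edgeR adjusted p = 0.621 for both.

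Levels of different members were compared per length, as CPM per kilobase of all annotated exons (the union over transcripts). In uninjured C57 tendon the order was *P4hb* (356 ± 49, SD, n = 4), *Serpinh1* (117 ± 48), *Crtap* (73.9 ± 15.8), *P4ha1* (34.6 ± 6.5), *Plod2* (26.3 ± 13.4), *Plod1* (25.9 ± 13.7), *Plod3* (13.3 ± 7.0), *P4ha2* (10.8 ± 3.8) and *P4ha3* (2.30 ± 1.66). *P4hb* was separated from *Serpinh1*, *Crtap* from *P4ha1*, and *P4ha2* from *P4ha3*, by more than their SDs, and the other neighbours in this order were not. Leaving out the library labelled C57 uninjured replicate 4 kept this order, and then *Serpinh1* (141 ± 6) was also separated from *Crtap* (80.2 ± 11.9), and *Plod1* (32.6 ± 3.8) from *Plod3* (16.4 ± 4.2). In injured MRL tendon the order was nearly the same, from *P4hb* (728 ± 126), *Serpinh1* (367 ± 100), *Crtap* (120 ± 30) and *P4ha1* (88.3 ± 18.3) to *Plod1* (37.2 ± 11.8), *Plod2* (33.8 ± 6.3), *Plod3* (29.6 ± 6.5), *P4ha2* (24.0 ± 5.4) and *P4ha3* (19.5 ± 4.4). There *Crtap* and *P4ha1*, and each neighbouring pair of the lower 5, lay within their SDs. *P4ha3* was the lowest member in uninjured MRL as well (2.59 ± 1.51), and in injured C57 (20.6 ± 15.3) its SD spanned the means of *P4ha2* (18.3 ± 5.4), *Plod3* (15.7 ± 3.8), *Plod2* (21.3 ± 7.5), *Plod1* (33.1 ± 8.5) and *P4ha1* (34.3 ± 8.8).

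The make-up of the catalytic subunits differed between groups. Per length, *P4ha1* made up 66.7% to 73.2% of the 3 catalytic subunits in uninjured C57 replicates 1 to 3, 82.5% in the library labelled uninjured replicate 4, and 39.9% to 51.5% in injured C57 libraries. In MRL it made up 81.6% to 85.9% in uninjured replicates 1 to 3, 66.5% in the library labelled uninjured replicate 4, and 63.4% to 69.3% in injured libraries. The overlap of the MRL groups thus came from that library alone. Between uninjured strains the shares overlapped with all libraries and did not without both labelled replicate 4. *P4ha3* went from at most 6.49% to between 20.2% and 38.7% in C57, and from at most 6.75% (4.0% without the library labelled replicate 4) to between 13.0% and 16.7% in MRL. *P4ha2* stayed between 11.7% and 29.1% in all 16 libraries. The injured strains did not overlap in the share of *P4ha1* or of *P4ha3*. These shares are a description, with no test.

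Among the lysyl hydroxylases, the shares overlapped more. *Plod2* made up 39.5% to 40.8% of the family in uninjured C57 and 26.1% to 36.1% in injured C57 libraries, with no overlap, and *Plod1* 35.0% to 41.8% and 43.6% to 50.5%. In MRL *Plod2* made up 27.6% to 54.0% in uninjured libraries, where the highest was the library labelled replicate 4 (the other 3 reached 32.2%), and 28.4% to 41.3% in injured ones. *Plod3* made up 17.9% to 24.6% in uninjured C57, 20.2% to 25.1% in injured C57, 17.8% to 25.9% in uninjured MRL and 22.3% to 34.6% in injured MRL libraries.

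**Figure D4:**
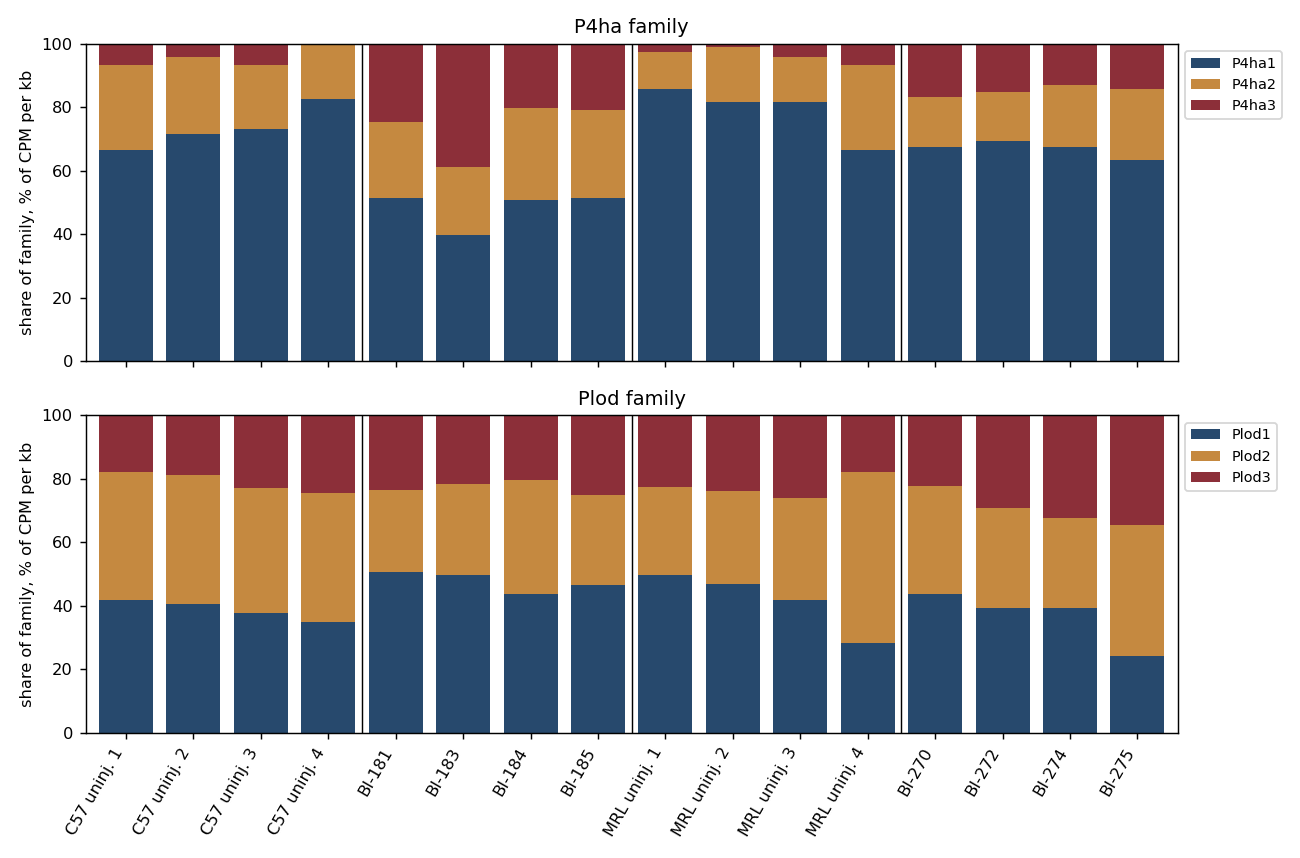
Share of each isoenzyme in its family (y axis, percent of summed CPM per kilobase) in the 16 libraries (x axis), for the catalytic prolyl 4-hydroxylase subunits (top) and the lysyl hydroxylases (bottom); vertical lines separate the groups. *P4ha3* (red, top) is at most 6.75% in uninjured tendon, 20.2% to 38.7% in injured C57 and 13.0% to 16.7% in injured MRL libraries.

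The collagen chains, the substrate of these enzymes, were read in the same libraries. Summed over 9 fibrillar collagen chains (*Col1a1*, *Col1a2* and *Col3a1* among them), the level ranged from 8424 to 18470 CPM in uninjured C57, 13220 to 37580 in injured C57, 12380 to 29810 in uninjured MRL and 25950 to 67650 CPM in injured MRL libraries. In MRL 4 of the 9 chains were called and all 4 rose: *Col5a1* (log2 fold change 1.53 ± 0.25, edgeR adjusted p = 0.00524), *Col5a2*, *Col11a1* and *Col3a1*. In C57 0 of the 9 were called (median log2 fold change of the 9 chains 0.62), with *Col5a1* at 1.24 ± 0.44 (edgeR adjusted p = 0.236) and *Col3a1* at 1.14 ± 0.46 (edgeR adjusted p = 0.287). In C57 without BI-181 and the library labelled uninjured replicate 4, 2 of the 9 rose, *Col5a1* (1.25 ± 0.29, edgeR adjusted p = 0.0319) and *Col3a1* (1.21 ± 0.29, edgeR adjusted p = 0.0352), with a median of 0.71. In MRL without its library labelled replicate 4, 3 of the 9 rose, and *Col3a1* was not called. *Col1a1* and *Col1a2*, the chains of type I collagen, were called in neither strain.

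Each member was also set against the summed counts of *Col1a1*, *Col1a2* and *Col3a1*, the main chains of types I and III. *Serpinh1* had 14.2 to 25.7 counts per 1000 counts on these 3 chains in uninjured C57 and 20.9 to 33.2 in injured C57 libraries, and 13.8 to 28.1 in uninjured and 18.3 to 35.1 in injured MRL libraries. *P4ha3* was higher in every injured library of both strains: it had at most 0.78 per 1000 in uninjured C57 and at least 1.14 in injured C57 libraries, and at most 1.17 in uninjured and at least 1.21 in injured MRL libraries. *P4ha1* went the other way in C57, from 8.93 to 13.2 per 1000 in uninjured to 3.75 to 7.95 in injured libraries, with no overlap, and so did *Plod2* without the library labelled C57 uninjured replicate 4 (9.02 to 13.1, against 3.94 to 5.69). In MRL, *Crtap* (7.55 to 13.2 per 1000 in uninjured and 3.90 to 7.03 in injured libraries) and *Plod1* (at least 7.78 and at most 6.85) did so. For *P4hb*, *P4ha2* and *Plod3* the ranges of injured and uninjured libraries overlapped in both strains. Read against all genes tested, with 1 of 9 members (*P4ha3*) above in each strain, 2.17% of genes in C57 and 1.86% in MRL had a ratio to these chains that was above the uninjured range in every injured library (4.01% and 3.23% without the libraries labelled uninjured replicate 4). With 1 of 9 members below in C57 and 2 of 9 in MRL, 12.1% and 25.3% of genes were below it (15.7%, with 2 of 9 members, and 26.3%, with 2 of 9, without those libraries). These ratios are a description, with no test.

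**Figure D5:**
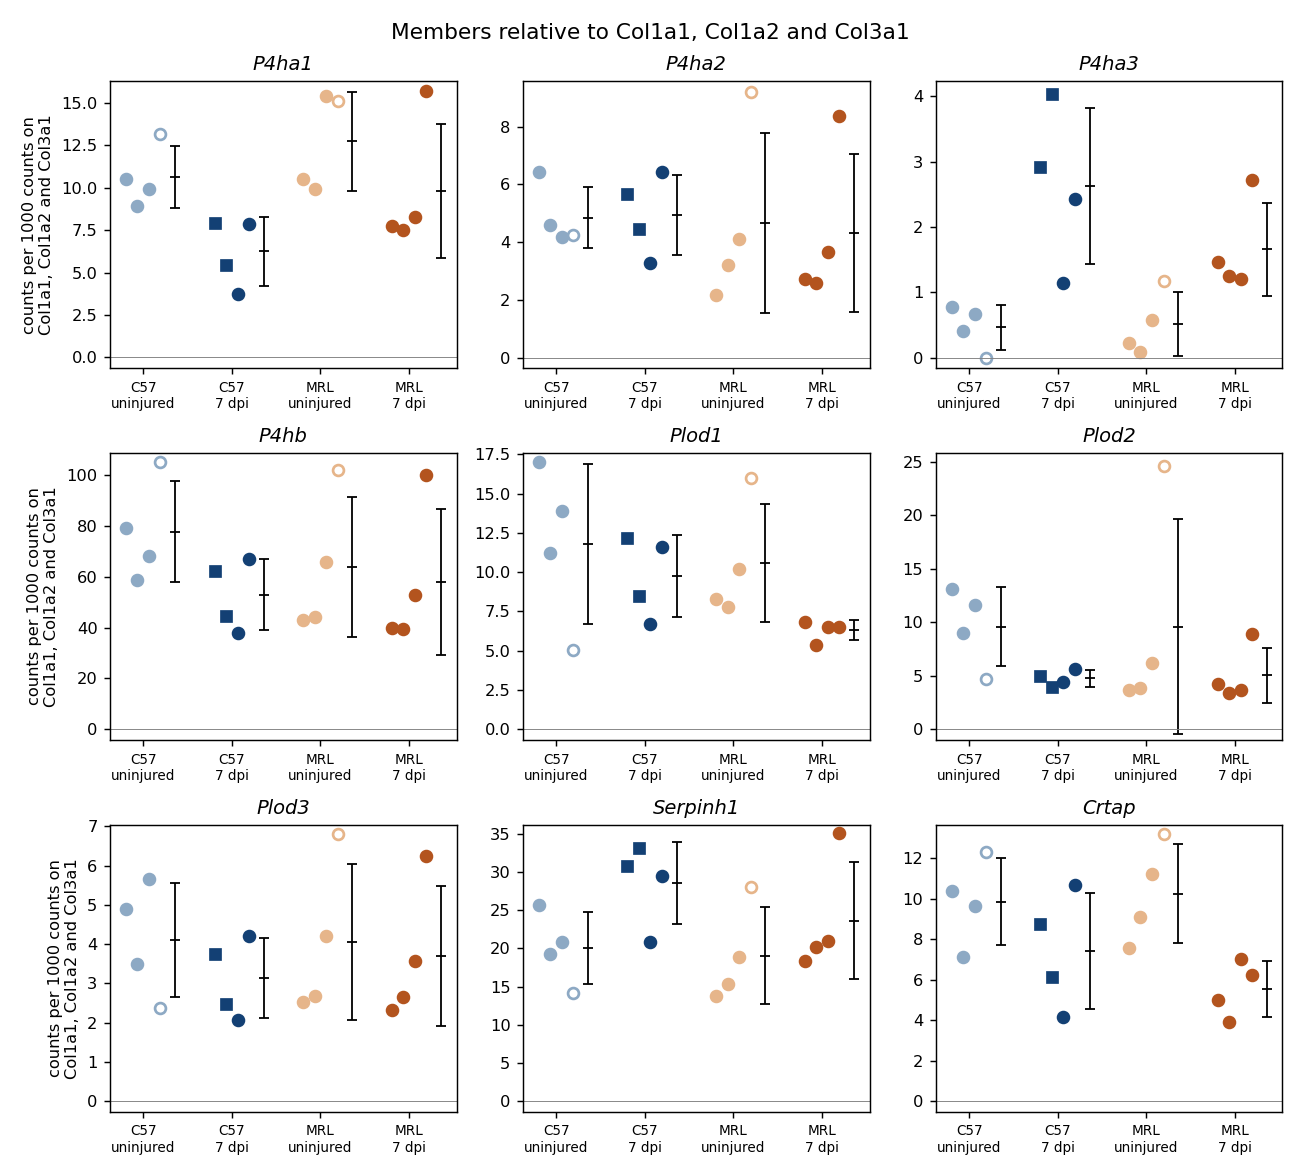
Counts on each member per 1000 summed counts on *Col1a1*, *Col1a2* and *Col3a1* (y axis) in the 16 libraries by group (x axis), with mean ± SD of 4 libraries (black). Hollow circles are the libraries labelled uninjured replicate 4 and squares are BI-181 and BI-183. *P4ha3* is higher in all injured libraries than in the uninjured ones of its strain, as were 2.17% of genes tested in C57 and 1.86% in MRL. *P4ha1* is lower in all injured C57 libraries (3.75 to 7.95) than in uninjured C57 (8.93 to 13.2), as were 12.1% of genes tested.

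The ER partners of the members were read from a list of 11 genes. In MRL 3 of the 11 were called and rose: *P3h1*, the catalytic partner of *Crtap* (log2 fold change 1.09 ± 0.16, edgeR adjusted p = 0.00386), *Fkbp10*, a prolyl isomerase that works with HSP47 and PLOD2 (0.79 ± 0.20, edgeR adjusted p = 0.0289), and *Ppib*, which encodes cyclophilin B (0.62 ± 0.17, edgeR adjusted p = 0.0457). The median of the 11 was 0.39, against -0.03 over all genes tested. In C57 0 of the 11 were called and their median was 0.04, against -0.05 over all genes. When BI-181 and the library labelled uninjured replicate 4 were left out, *Tmem38b*, which encodes an ER cation channel, fell in C57 (-0.80 ± 0.19, edgeR adjusted p = 0.0344). *P3h1* was called in MRL while *Crtap*, its partner in the same complex, was at 0.06 ± 0.22.

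Of 10 genes for collagen export, *Sec13*, a coat protein of ER vesicles, was the 1 called in MRL (log2 fold change 1.04 ± 0.21, edgeR adjusted p = 0.0134), and 0 were called in C57. Of 14 ER chaperone and unfolded protein response genes, 4 were called in MRL and rose (*Hsp90b1*, *Pdia6*, *Manf* and *Calr*, log2 fold change between 0.57 and 1.13). None of the 14 was called in C57, where the median was -0.28 and 2 were positive. Without BI-181 and the library labelled C57 uninjured replicate 4, the C57 median was -0.003, 7 were positive and 0 were called. Without the library labelled MRL uninjured replicate 4, 0 of the 14 were called in MRL, although 13 were positive, and 1 of the 11 ER partners (*P3h1*) remained called.

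Genes known to respond to hypoxia moved in both directions. Their summed level was 1553 to 1661 CPM in uninjured and 2076 to 3162 CPM in injured MRL libraries. In C57 it was 1487 to 2930 CPM in uninjured and 1445 to 2978 CPM in injured libraries. *Ldha* made up the largest part (mean 2107 CPM in injured MRL). Of 13 in the list, 3 rose in MRL (*Ldha*, 1.14 ± 0.21, *Pgk1*, 1.31 ± 0.26, and *Vegfa*, 1.18 ± 0.24, log2) and 3 fell (*Egln3*, -2.13 ± 0.33, *Bnip3*, -0.82 ± 0.19, and *Ndrg1*, -1.08 ± 0.26), with edgeR adjusted p from 0.00417 to 0.0269. *Ndrg1* was no longer called without the library labelled MRL uninjured replicate 4, and the other 5 were. None was called in C57 with all libraries, and without the library labelled uninjured replicate 4 *Vegfa* rose (1.96 ± 0.49, edgeR adjusted p = 0.0489) and *Ndrg1* fell (-0.87 ± 0.19, edgeR adjusted p = 0.0308). *P4ha1* and *Plod2*, members known as hypoxia targets, were called in neither strain with all libraries, *Plod2* was called in MRL without the library labelled uninjured replicate 4, and *P4ha2* was called in MRL.

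Markers of other cell types moved with injury as well. All 6 proliferation markers rose in MRL, from a summed 3.78 to 10.96 CPM in uninjured to 184 to 699 CPM in injured libraries. Of 8 macrophage markers 3 rose in MRL and 5 in C57 (2 and 8 without the libraries labelled uninjured replicate 4), with a summed level from 953 to 1560 CPM in uninjured and 3504 to 6375 CPM in injured MRL, and from 743 to 1643 CPM in uninjured and 4563 to 8252 CPM in injured C57 libraries. Of 6 tenocyte markers *Thbs4* rose in MRL and 0 were called in C57 with all libraries. *Scx*, the tendon transcription factor, fell in C57 without the library labelled uninjured replicate 4 (log2 fold change -0.95 ± 0.15, edgeR adjusted p = 0.0103). Without that library and BI-181, *Scx* (-0.84 ± 0.14) and *Mkx* (-0.88 ± 0.17) fell in C57 and *Thbs4* rose (0.91 ± 0.18), with edgeR adjusted p from 0.00986 to 0.0183. Of 6 proliferation markers 0 were called in C57, and 5 were without the library labelled uninjured replicate 4, which had 216 CPM on them. Of 6 endothelial and 12 epidermal markers (10 of the latter tested) 0 were called in either strain with all libraries, and 2 endothelial markers rose in C57 without that library. Of 12 skeletal muscle markers 7 were tested in C57 and 0 called, and 4 were tested in MRL and 1 called (*Tnni2*, which rose, and was not called without the library labelled uninjured replicate 4). The part of these cells in the members' changes was not tested.

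Pairs of members varied together from library to library to different degrees. With the group means subtracted and both libraries labelled uninjured replicate 4 left out, Pearson's r of log2 CPM was taken over 14 libraries. It was 0.90 between *P4hb* and *Plod3*, 0.87 between *P4ha1* and *P4hb*, and 0.87 between *P4ha1* and *Serpinh1*. With *P4hb*, r was 0.86 for *Plod2*, 0.85 for *P4ha2* and 0.84 for *Serpinh1*. Between *P4ha1* and *Plod3*, and between *Plod1* and *Crtap*, r was 0.81. It was lowest between *P4ha2* and *Plod1*, at 0.18, and the highest r of *P4ha3* with another member was 0.65, with *P4ha1*. These libraries share depth and tissue make-up, so r is a description.

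Of 9436 other genes with a mean of at least 10 CPM, those most like each member over the 16 libraries were taken by Pearson's r of log2 CPM. *Serpinh1* was most like *Col5a1* (r = 0.99), which also led after the group means were subtracted (r = 0.97). *Plod3* was most like *Col6a1* (r = 0.96) and *Bgn* (r = 0.95), which encode a chain of type VI collagen and biglycan. *P4hb* was most like *Tmed3* (r = 0.96) and *Kdelr3* (r = 0.96), a vesicle cargo receptor and the receptor that returns ER proteins. *P4ha1* was most like *Adk* (r = 0.96), *Ddost* (r = 0.95) and *Pdia4* (r = 0.94), and with group means subtracted *Spon1* (r = 0.93) and *Fkbp10* (r = 0.91). *P4ha2* was most like *Selenof* (r = 0.95), *P4ha3* like *Impdh1* (r = 0.95), *Plod1* like *Esyt1* (r = 0.95), *Plod2* like *Dnajc3* (r = 0.93) and *Crtap* like *Fkbp9* (r = 0.94). Over the 14 libraries without both labelled uninjured replicate 4, *Col5a1*, *Adk* and *Fkbp9* again ranked first for *Serpinh1*, *P4ha1* and *Crtap*, and other genes ranked first for the other 6 members.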

How the data were processed

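RNA-seq was measured in 16 flexor tendons, 4 in each group, and groups, strains and replicate numbers were taken from the sample labels. Per the methods and the submitters' processing notes, single-end reads (100 nt) were trimmed by the authors in Trimmomatic 0.36, and they aligned these to GRCm38.p5 with STAR 2.5.2b, counted with featureCounts (Subread 1.5.0p3) and used DESeq2 1.14.1. They deposited a table of raw counts, as whole numbers per gene symbol without normalization. Which gene annotation and strand setting featureCounts had is not given in the sources used here. The methods describe pre-amplification of low-input RNA, which the labels do not, and counts without molecular identifiers carry more technical error than counting error.

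The total counts of 12552424 to 23741648 per library put 3 counts, taken as the floor, at 0.126 to 0.241 CPM. Each comparison was fitted on its own libraries with edgeR 4.0.16 in R 4.3.3 (expression filter on the groups, TMM, robust quasi-likelihood test, Benjamini-Hochberg adjustment over all tested genes), and the interaction on all 16. Standard errors (SE) were computed from each log2 fold change and its F statistic. CPM used TMM-adjusted library sizes, and log2 CPM a prior count of 2. Gene positions and exon lengths came from GENCODE M21 (GRCm38), and promoter windows from RefSeq (GRCm38.p6). The tests were first tested on simulated data.

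Members and gene lists were chosen with earlier results of these data known. All 9 members are described in every library. From other lists, genes called in an injury comparison are named, at most 4 with the smallest adjusted p for each list and comparison. The genes of like pattern are those with the highest Pearson's r among genes with a mean of at least 10 CPM. The methods give 4 animals per group for the expression analysis, so p-values measure the spread between animals. How these animals relate by litter or cage is not given in the sources used here. Alternatives were DESeq2 1.42.0, other scalings and filters, all libraries in 1 fit, leaving out single libraries, and leaving out the libraries in doubt. Leaving out BI-181 with BI-183, and only both uninjured libraries labelled replicate 4 in the interaction, was chosen after seeing the data.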

Additional observations from a re-analysis of the deposited data

Results flagged for a closer look

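In 4 groups a library stood apart from the other 3, by a gap beyond Dixon's 95% critical value for 4 samples (the smallest gap was 0.888 of the group's range). *P4ha3* was at 136 CPM in BI-183, against 35.5 to 46.6 CPM in the other injured C57 libraries. *Serpinh1* was at 113 CPM in the library labelled C57 uninjured replicate 4, against 327 to 355 CPM, and at 1260.0 CPM in BI-272, against 756 to 797 CPM in the other injured MRL libraries. *Plod2* was at 271 CPM in the library labelled MRL uninjured replicate 4, against 103 to 119.5 CPM. Chance alone sets apart about 1 in 20 such groups, and each of the 9 members was examined in 4 groups.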

How the results depend on the processing

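Of 789 values of single members under an alternative, 717 kept their direction and their side of the threshold, 52 changed sign (none of these was called with all libraries, and 1 was called under its alternative: *Plod2* between uninjured strains without the libraries in doubt), 11 became called and 9 lost the call. The cause of these changes was not tested.

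In DESeq2, 1028 of 16563 genes and 1 member (*P4ha3*) were called in C57 after injury, and 2921 of 17004 genes and 5 members in MRL. Between injured strains it called 1945 of 18068 genes and 3 members. Between uninjured strains it called 125 of 15588 genes, and in the interaction 210 of 15655. In the fit of all 16 libraries, with 15947 genes tested, 416 were called in C57, 1089 in MRL and 288 between injured strains. Of the members, 0 were called in C57, 2 in MRL and 1 between injured strains there. With at least 10 counts in every library, 284 genes were called in C57 and 1 between uninjured strains, *P4ha3* was not tested where the library labelled C57 uninjured replicate 4 entered, and *P4ha1* in C57 was at 0.011 (log2). Without a filter 1 gene was called between uninjured strains, and the interaction of *Serpinh1* was 0.0018. Upper-quartile factors gave 108 genes in C57. With total counts, *P4ha1* in C57 was at 0.075, *Plod1* between injured strains at -0.0024 and *P4ha2* in the interaction at -0.0024, and the median of all genes moved from -0.05 to 0.08 in C57 and from -0.06 to -0.20 between injured strains.

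Without the libraries in doubt, 1241 of 14515 genes and 3 members were called in C57, with *P4ha1* at 0.0089. Between uninjured strains 785 of 14274 genes and 3 members were. *P4ha2*, *P4ha3*, *Plod1* and *Plod2* were then at -0.071, -0.57, -0.058 and -0.70 between uninjured strains. In the interaction *P4ha3* and *Plod1* were at 0.27 and 0.061, and without both libraries labelled uninjured replicate 4 alone *P4ha3*, *Plod1* and *Serpinh1* were at 0.47, 0.21 and 0.18. Without BI-181 and BI-183, 112 genes and 0 members were called between injured strains, and *P4ha3* was at 0.48.

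Without each library in turn, the genes called ranged from 10 to 938 in C57, 803 to 1734 in MRL, 231 to 499 between injured and 0 to 3 between uninjured strains, and the members called from 0 to 1, 3 to 6 and 1 to 2 in the first 3 of these. The log2 fold change in C57 ranged from -0.18 to 0.11 for *P4ha1*, -0.016 to 0.49 for *Plod1* and -0.10 to 0.50 for *Plod3*, and in MRL from -0.063 to 0.21 for *Crtap*. Between injured strains it ranged from -0.30 to 0.55 for *P4ha3* and -0.0016 to 0.38 for *Plod1*, and between uninjured strains from -0.26 to 0.47 for *P4ha3*, -0.12 to 0.39 for *Plod1* and -0.38 to 0.27 for *Plod2*. In the interaction it ranged from -0.071 to 0.32 for *P4ha2*, -0.56 to 0.41 for *P4ha3*, -0.23 to 0.27 for *Plod1* and -0.22 to 0.31 for *Serpinh1*.

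The replicate numbers of uninjured tendons did not pair the strains (r of same-numbered deviations -0.26, 0.02, -0.11 and -0.23), and with the replicate block 0 genes and 0 members were called between uninjured strains, 812 genes being at an unadjusted p under 0.05.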
